A study of Mus musculus with 9 samples.

Results

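Phase II conjugation enzymes were examined in RNA from the colonic mucosa of 9 mice. Members were taken by gene symbol: Gst followed by a, k, m, o, p, t or z and a number, Mgst1, Mgst2 and Mgst3, Ugt with a family number of 1, 2 or 3 and the letter a or b, and every Sult gene with a family number, a letter and a number. The rule found 65 genes among the 54146 in the table, of which 24 were glutathione transferases, 21 UDP-glucuronosyltransferases and 20 sulfotransferases. The mice were C57BL/6J, 15 wk old, and every one of them carried ApcMin/+, a heterozygous germline mutation of Apc that leads to intestinal tumors. The 5 ApcMin/+ mice (2 females, 3 males) were the controls. The 4 ApcMin/+; p16cis/cis mice (3 females, 1 male) were in addition homozygous for p16cis, a short DNA element knocked in at the p16 (Cdkn2a) promoter that makes DNA methylation spread there as the animal ages. Both alleles are present in the germline, so they are not limited to the colon, and no mouse without the Apc mutation was analysed here. The labels name colonic mucosa and the study's methods name colonic crypts as the source of the RNA. Each mouse gave 1 library, and mice are numbered by the replicate number of their group.

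Phase II enzymes attach a water-soluble group to drugs, hormones, bilirubin, bile acids, food compounds and oxidised lipids, which makes these molecules easier to export from the cell. UDP-glucuronosyltransferases (UGTs) sit in the endoplasmic reticulum and add glucuronic acid from UDP-glucuronate, sulfotransferases (SULTs) of the cytosol add sulfate from the donor PAPS, and glutathione transferases (GSTs) add the tripeptide glutathione to electrophiles. The colon epithelium carries all of these classes, where they meet dietary compounds and products of the gut flora, and transport proteins of the ABC family pump the conjugates out of the cell.

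The deposited values are normalised read counts, that is, reads per gene divided by 1 scaling factor per mouse. Each library of the ApcMin/+ group held 15745098 to 17885918 reads on genes, and each of the ApcMin/+; p16cis/cis group 13523500 to 14900228. Mitochondrial transcripts took 12.0% ± 2.87 (SD, n = 5) and 24.2% ± 4.41 (SD, n = 4) of reads, without overlap, and genotype accounted for 78.1% of the variance of this share, so its part in the results cannot be told apart from that of genotype. Cdkn2a had 0 reads in all 9 mice and gave no check of the genotype. Epithelial markers summed to 196426 to 281921 in ApcMin/+ mice, against 191639 to 256977 in the ApcMin/+; p16cis/cis mice, immune markers to 173 to 1891 in ApcMin/+ mice, against 354 to 561 in the ApcMin/+; p16cis/cis mice, and stromal, muscle and vessel markers to 233 to 712 in ApcMin/+ mice, against 164 to 345 in the ApcMin/+; p16cis/cis mice, with overlap in each case; 1 of 8, 1 of 10 and 1 of 8 tested genes of these lists were lower in ApcMin/+; p16cis/cis mice (Tspan8, Lyz2 and Col3a1, the last lost in 10 of 22 alternatives) and 0 were higher. Surface colonocyte markers summed to 145365 to 306944 in ApcMin/+ mice, against 107912 to 137173 in the ApcMin/+; p16cis/cis mice, without overlap. Of these 10 genes, 2 were lower (Slc26a3 and Slc9a3) and 8 did not pass. Car1, the most abundant of them, had 64999.5 to 165058 against 40059.5 to 68015.5, with overlap. Crypt and dividing cell markers summed to 6485 to 10418 in ApcMin/+ mice, against 10447 to 13404 in the ApcMin/+; p16cis/cis mice, separated by a narrow gap. Of these 9 genes, 1 was higher (Mki67, 1856 to 3072 against 3240 to 5251) and 8 did not pass. Over all genes tested, 8.75% were lower and 8.14% higher. In bulk RNA, fewer cells of a type and less RNA per cell cannot be told apart, and the part that these markers play in the results was not tested.

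In ApcMin/+; p16cis/cis mice 5 of the 7 UGTs tested were lower than in ApcMin/+ mice, and so was 1 of 6 sulfotransferases. Of 22 glutathione transferases, 1 was lower and 3 were higher, all 3 of them among the 7 mu-class genes. Of the 65 members, 16 had no read in any mouse and 14 others did not reach a normalised count of 10 in at least 4 mice, which left 35 for the test (limma on log2 of the normalised count + 1, with Benjamini-Hochberg adjustment over all 14410 genes tested). At an adjusted p under 0.05, 7 members were lower (Sult1d1, Ugt2b5, Ugt1a1, Ugt2b36, Ugt1a7c, Gsta1 and Ugt2b34) and 3 were higher (Gstm1, Gstm3 and Gstm2), where 8.75% and 8.14% of all genes tested were lower and higher. The 3 higher of 35 are a share near that of all genes, and the 7 lower a larger share, 5 of them among 7 UGTs. With the study's added threshold of a fold change over 2, 6 members were lower and 0 higher, against 1.64% and 1.83% of all genes. The 2 groups of mice did not overlap for 6 lower and 2 higher members, compared with 8.95% and 7.24% of all genes. The median log2 fold change was -1.02 over the 7 UGTs tested, -0.15 over the 6 sulfotransferases, 0.21 over the 22 glutathione transferases and -0.0041 over all genes tested.

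**Figure D1:**
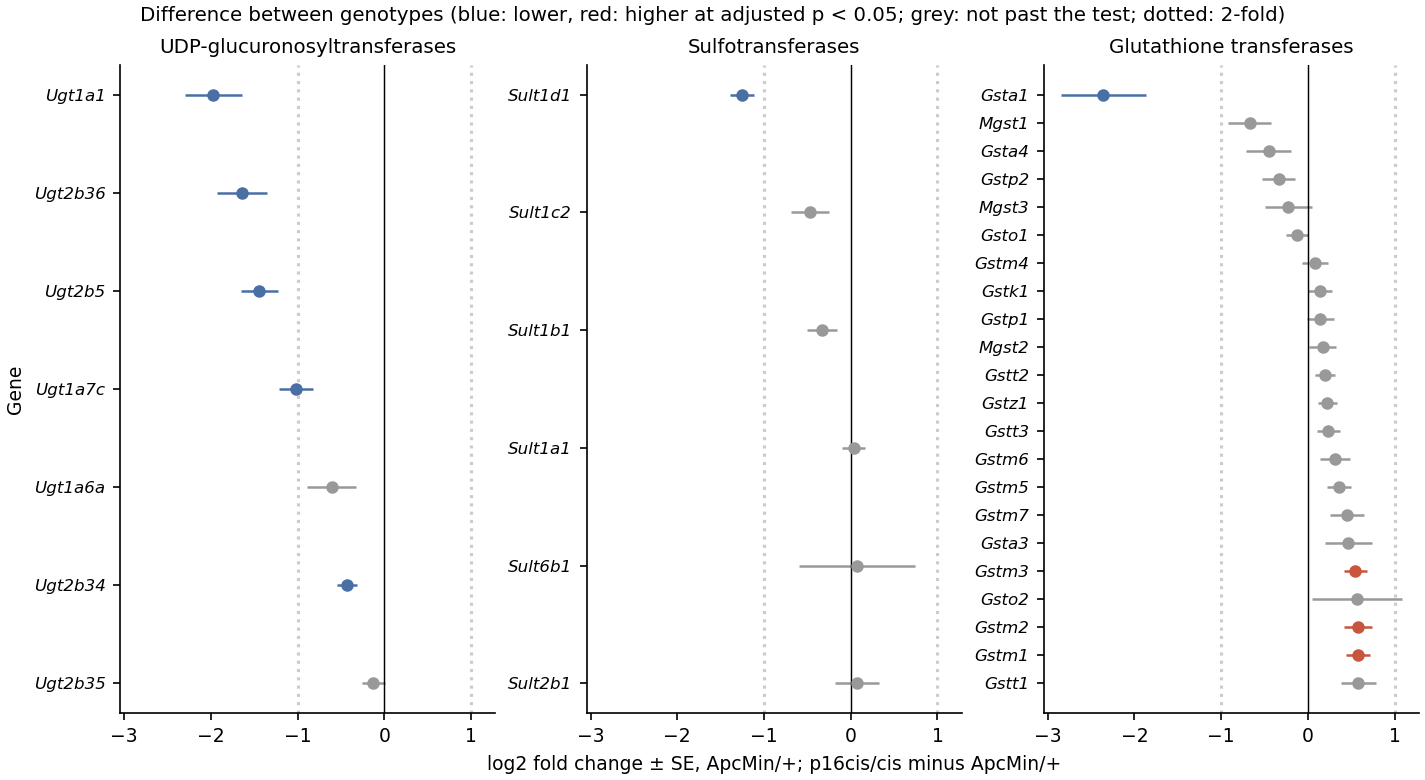
Log2 fold change (x axis, ApcMin/+; p16cis/cis minus ApcMin/+) of the 35 tested members, 1 panel a class, with bars giving the standard error. All 7 UGTs lie left of 0 and 5 of them are past the test (blue), while all 7 Gstm genes lie right of 0 and 3 of them are past it (red).

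Per kilobase of exon, a few genes made up most of each class. Among UGTs, Ugt2b34 had a mean normalised count per kb of 2572 in ApcMin/+ mice, Ugt1a7c of 876 and Ugt2b5 of 329, and Ugt2b34 alone held 58.6% of the class in ApcMin/+ mice, against 67.3% in the ApcMin/+; p16cis/cis mice. Among sulfotransferases the order was Sult1a1 (4656 per kb), Sult1d1 (2120.5) and Sult1b1 (1589) in ApcMin/+ mice. In ApcMin/+; p16cis/cis mice Sult1b1 (1247) stood above Sult1d1 (899). Among glutathione transferases the membrane enzyme Mgst3 led with 12011 per kb, followed by Gsto1 (6804) and Gstm1 (4393). The glutathione class as a whole stood above the sulfotransferases and these above the UGTs, at 34521 ± 9275, 9550.0 ± 1119 and 4389 ± 227 per kb (mean ± SD, n = 5) in ApcMin/+ mice.

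**Figure D2:**
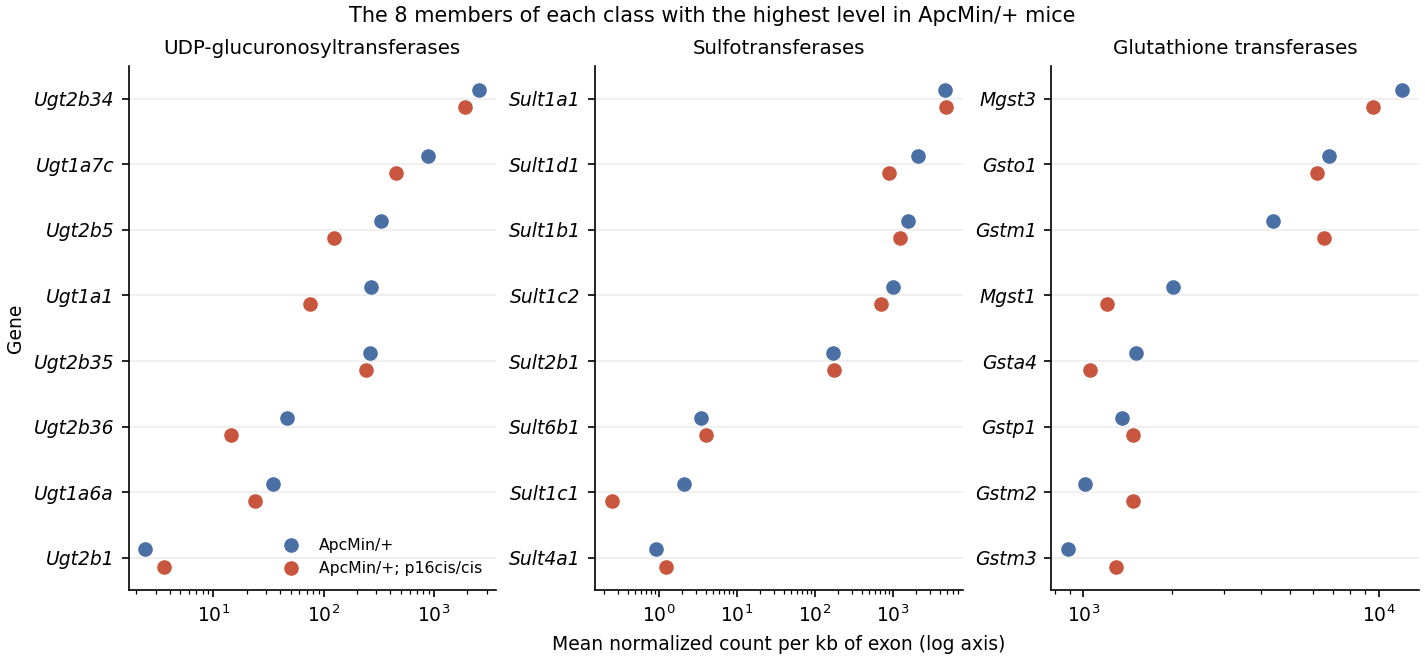
Mean normalised count per kb of exon (x axis, log scale) of the 8 most abundant members of each class, in ApcMin/+ (blue, n = 5) and ApcMin/+; p16cis/cis mice (red, n = 4). The red point lies left of the blue one for the 7 most abundant UGTs, and right of it for Gstm1, Gstm2 and Gstm3.

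The Ugt1a genes share 1 locus on chromosome 1 (chr1:88055388-88220002, GRCm38), where 9 alternative first exons are each spliced to the same downstream exons. Ugt1a1 (ENSMUSG00000089960.1, gene body at chr1:88211959-88218997), the enzyme that conjugates bilirubin, had normalised counts of 521, 481, 647, 857 and 463 in ApcMin/+ mice 1 to 5. The counts in ApcMin/+; p16cis/cis mice 1 to 4 were 178, 134, 281 and 68.9. Every ApcMin/+; p16cis/cis mouse lay below every ApcMin/+ mouse, and mouse 4 of that group was the lowest. The difference was past the test (limma, log2 fold change -1.97, SE 0.33, adjusted p = 0.00455), and the ratio of means was 3.59 to 1.

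Ugt1a7c (ENSMUSG00000090124.7, chr1:88095062-88220002), which acts on phenols and food-borne carcinogens, was the most abundant of the locus per kb. It had 3181, 3859, 3967, 3587 and 3888 normalised counts in ApcMin/+ mice, against 2579.8, 1573, 2263 and 1194 in the ApcMin/+; p16cis/cis mice. The groups did not overlap, and the spread was wider among the ApcMin/+; p16cis/cis mice, in which mice 2 and 4 were the lowest (limma, log2 fold change -1.02, SE 0.19, adjusted p = 0.00711). Ugt1a6a, another phenol-conjugating form, had 117 to 210.1 normalised counts in ApcMin/+ mice against 54.1 to 153 in ApcMin/+; p16cis/cis mice (ranges are given in this order throughout), with overlap between the groups, and did not pass the test (limma, log2 fold change -0.60, SE 0.28, adjusted p = 0.158). The other 6 genes of the locus stayed at or below 3.13 normalised counts in every mouse. In the annotation used here (GENCODE M21), 0 exon bases of Ugt1a1 and Ugt1a6a are free of exons of other Ugt1a genes. This count is made gene by gene and does not say that these forms lack a first exon of their own. Reads from the shared part were split between the forms by the authors' estimate. Summed over the 9 genes, which does not depend on how reads were split within it, the locus had 4441 ± 354 against 2172 ± 696 normalised counts (mean ± SD, n = 5 and 4), without overlap.

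The second group of lower members lies on chromosome 5 (chr5:86889767-87591594, GRCm38), where 7 Ugt2b genes, 3 Ugt2a genes and the sulfotransferases Sult1b1, Sult1d1 and Sult1e1 stand in 1 cluster of 13 members over 702 kb. Of its 6 tested members, 4 were lower. To show what these 4 share or do not share ahead of the transcription start, the 250 bases before the RefSeq start (GRCm38.p6, minus strand in each case, 5′ to 3′) are given here, Ugt2b5 at chr5:87140341-87140590, Ugt2b36 at chr5:87092556-87092805, Ugt2b34 at chr5:86906938-86907187 and Sult1d1 at chr5:87569007-87569256. Capitals mark the nuclear receptor site AGGTCA or the Ahr core GCGTG, on either strand.
Ugt2b5: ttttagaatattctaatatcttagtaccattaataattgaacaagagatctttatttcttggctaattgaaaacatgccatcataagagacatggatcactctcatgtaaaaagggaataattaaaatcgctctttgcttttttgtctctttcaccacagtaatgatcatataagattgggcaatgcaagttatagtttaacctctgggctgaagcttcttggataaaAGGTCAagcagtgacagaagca
Ugt2b36: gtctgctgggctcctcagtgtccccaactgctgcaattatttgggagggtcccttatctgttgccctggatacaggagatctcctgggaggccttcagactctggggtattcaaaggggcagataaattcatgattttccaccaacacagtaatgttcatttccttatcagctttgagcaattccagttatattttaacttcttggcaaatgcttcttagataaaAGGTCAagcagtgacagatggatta
Ugt2b34: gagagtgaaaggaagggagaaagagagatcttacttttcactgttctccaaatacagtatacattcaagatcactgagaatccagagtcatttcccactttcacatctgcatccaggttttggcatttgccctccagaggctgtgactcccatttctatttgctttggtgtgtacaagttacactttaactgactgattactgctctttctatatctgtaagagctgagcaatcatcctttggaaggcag
Sult1d1: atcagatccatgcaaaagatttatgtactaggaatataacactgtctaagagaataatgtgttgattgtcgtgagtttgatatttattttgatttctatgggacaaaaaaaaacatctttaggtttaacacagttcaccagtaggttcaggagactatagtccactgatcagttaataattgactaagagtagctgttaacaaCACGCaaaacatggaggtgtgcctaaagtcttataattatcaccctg

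The windows of Ugt2b5 and Ugt2b36 shared a run of 24 bases, gataaaAGGTCAagcagtgacaga, which holds AGGTCA and ends 4 and 7 bases before their starts. In their best-matched stretch of 60 bases, 52 bases (86.7%) were identical. The run stood in 3 of 32851 windows of the genome, those of Ugt2b5, Ugt2b36 and Ugt2b37, and Ugt2b37 had no read in any mouse. AGGTCA was present in 14.0% of all windows, in 3 of the 7 lower members (Ugt1a7c being the third), in 0 of the 3 higher members and in 3 of 23 tested members that did not pass, of 57 members with a window. The direct repeat AGGTCANAGGTCA was in 0.0335% of all windows and in 0 of the 57. The antioxidant response element core TGACNNNGC, to which Nrf2 binds, was in 10.2% of all windows, in 0 of 7 lower, 0 of 3 higher and 4 of 23 other members. GCGTG was in 28.2% of all windows and, among members past the test, in Sult1d1 and Gstm1, and the Cdx site TTTAT was in 37.3% of all windows, 3 of 7 lower and 2 of 3 higher members. These matches describe letters in the windows, and the binding of the factors was not measured.

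Ugt2b5 (ENSMUSG00000054630.7, chr5:87124960-87140318), a steroid-conjugating form, had 524, 695, 658, 672 and 503 normalised counts in ApcMin/+ mice, against 266, 309, 219 and 135 in the ApcMin/+; p16cis/cis mice. Its neighbour Ugt2b36 (ENSMUSG00000070704.10, chr5:87065927-87092555) was less abundant (46.8 per kb in ApcMin/+ mice), with 64.7, 103, 106, 139 and 69.2 in ApcMin/+ mice, against 34.1, 39.9, 25.5 and 20.4 in the ApcMin/+; p16cis/cis mice. For both genes every ApcMin/+; p16cis/cis mouse was below every ApcMin/+ mouse, with mouse 4 of the ApcMin/+; p16cis/cis group the lowest. Ugt2b5 fell by 1.44 on the log2 scale (limma, SE 0.22, adjusted p = 0.00304) and Ugt2b36 by 1.64 (SE 0.29, adjusted p = 0.00547). Ugt2b34 (ENSMUSG00000029260.15, chr5:86889767-86906937), the most abundant UGT per kb, changed least among the UGTs past the test. It had 10681, 11710.5, 11178, 10206 and 11673 normalised counts in ApcMin/+ mice, against 9576, 8039.5, 8505 and 6923 in the ApcMin/+; p16cis/cis mice, also without overlap (limma, log2 fold change -0.43, SE 0.12, adjusted p = 0.0261). The call on Ugt2b34 was lost when ApcMin/+ mouse 2 or 3 or ApcMin/+; p16cis/cis mouse 2 or 4 was left out, with adjusted p up to 0.0859, and after a correction for GC content and gene length its log2 difference was -0.13 (limma, adjusted p = 0.456). Ugt2b35, which stands between Ugt2b34 and Ugt2b36, had 743 to 976 against 681 to 1009 normalised counts, with overlap. Its difference was about the size of its standard error and did not pass the test (limma, log2 fold change -0.13, SE 0.13, adjusted p = 0.534). The remaining 6 Ugt2 genes of the cluster were under the filter, the highest being Ugt2b1 with at most 12.8 normalised counts, and so were Ugt3a1 and Ugt3a2, which use other sugar donors and lie on chromosome 15. Ugt2b genes are close paralogs, and reads that match several of them were assigned by the authors' estimate.

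**Figure D3:**
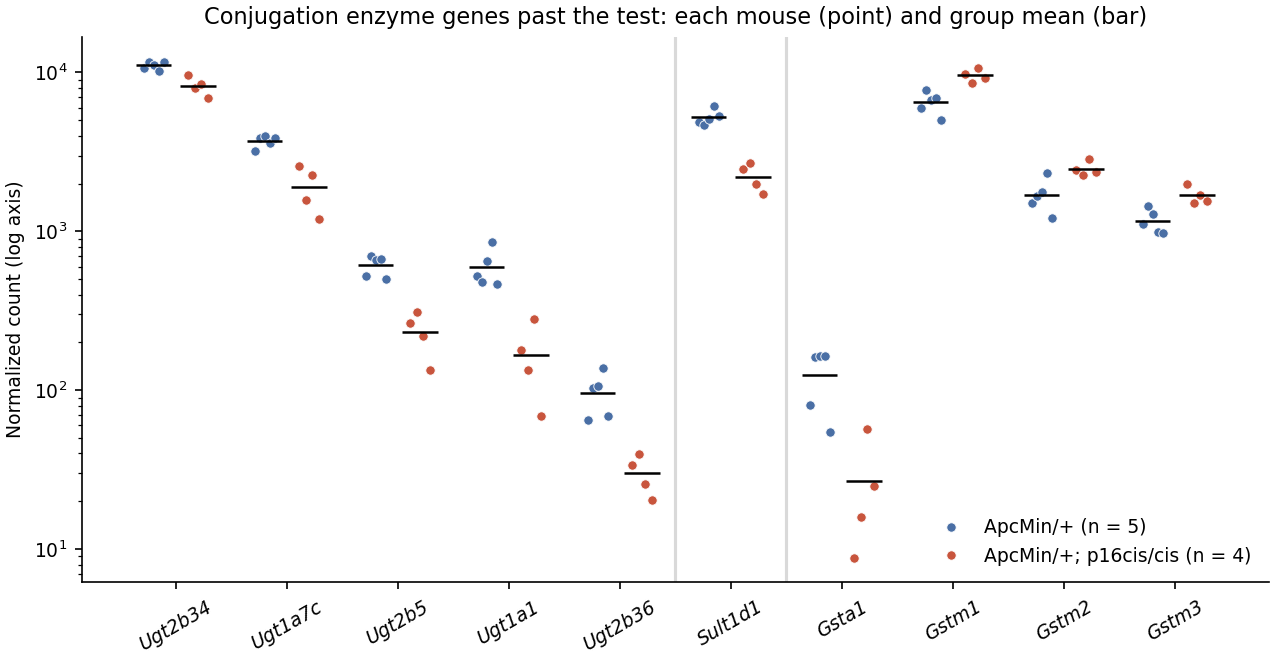
Normalised counts (y axis, log scale) of the 10 members past the test in each of the 5 ApcMin/+ (blue) and 4 ApcMin/+; p16cis/cis mice (red), with bars at the group means. The groups are separate for the 5 UGTs, Sult1d1, Gstm1 and Gstm3, and overlap for Gsta1 and Gstm2.

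Sult1d1 (ENSMUSG00000029273.10, chr5:87554645-87569027), which sulfates catecholamines and related small amines and phenols, had the smallest adjusted p of all members. ApcMin/+ mice 1 to 5 had 4853, 4651, 5103, 6176 and 5288 normalised counts, and ApcMin/+; p16cis/cis mice 1 to 4 had 2474, 2679.8, 1975 and 1714. The groups did not overlap, the lowest ApcMin/+ mouse being well above the highest ApcMin/+; p16cis/cis mouse, and Sult1d1 fell by 1.25 on the log2 scale (limma, SE 0.14, adjusted p = 0.00129). It was the only member with a Bonferroni-adjusted p under 0.05 (limma, 0.0155), the correction that the study's methods name. After the correction for GC content and length its difference was -0.93, under the 2-fold threshold, as it was for Ugt1a7c (-0.88).

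The sulfotransferases next to and beyond Sult1d1 did not pass the test. Sult1b1, which sulfates phenols and thyroid hormone and lies 16.4 kb from Sult1d1, had 3407 to 6287 against 3075 to 4299 normalised counts (limma, log2 fold change -0.33, SE 0.17, adjusted p = 0.202). Sult1a1, the main phenol sulfotransferase and the most abundant member of its class, had 6019 to 7821 against 6123 to 8568 and a log2 difference of 0.04 with SE 0.13. Sult1c2 was 1267 to 2709 against 999 to 1799 (limma, log2 fold change -0.47, SE 0.22, adjusted p = 0.152), and Sult2b1, which sulfates cholesterol, was 490.4 to 1148 against 463 to 876 with a log2 difference of 0.08 and SE 0.25. Sult6b1 passed the filter with at most 13.9 normalised counts and had the widest error of the class (SE 0.67). No difference was detectable for these 5 genes at this depth and number of mice. The estrogen sulfotransferase Sult1e1, all 8 Sult2a genes, which sulfate bile acids and steroids in liver, and both Sult3a genes had no read in any mouse. Sult4a1 was the highest of the 3 sulfotransferases that were detected but under the filter, with at most 6.83 normalised counts. A count of 0 allows up to 3 reads, or 1.68e-05% to 2.22e-05% of a mouse's reads, which covers counting error only.

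Of the 3 alpha-class glutathione transferases tested, 1 was lower and 0 higher. Gsta1 (ENSMUSG00000074183.3, chr9:78230656-78242684), which conjugates lipid peroxidation products and reduces lipid hydroperoxides, had the largest fold difference of the 35 members tested. It had 80.3, 162, 164, 164 and 54.5 normalised counts in ApcMin/+ mice, against 8.84, 15.95, 57.10 and 25.06 in the ApcMin/+; p16cis/cis mice (limma, log2 fold change -2.36, SE 0.49, adjusted p = 0.0102). ApcMin/+; p16cis/cis mouse 3 lay above ApcMin/+ mouse 5, so the groups overlapped. The 2 ApcMin/+ females (mice 1 and 5) had fewer Gsta1 counts than the 3 males, and among females only the log2 difference was -1.19 (limma, SE 0.54, adjusted p = 0.197), which was not past the test. Gsta4, specialised for the lipid aldehyde 4-hydroxynonenal, had 1157 to 3089 against 987 to 1773 normalised counts with a log2 difference of -0.45 and SE 0.26, and Gsta3 had 423 to 836 against 529.6 to 1301 with 0.47 and SE 0.27. Neither passed the test. Gsta2, a near-identical copy of Gsta1, had at most 3.13 normalised counts, so the assignment of reads between the 2 copies is uncertain.

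The 7 mu-class genes lie in 1 cluster on chromosome 3 (chr3:107895821-108044894, GRCm38) and all had positive log2 differences, between 0.08 (Gstm4) and 0.58 (Gstm1). Gstm1 (ENSMUSG00000058135.12, chr3:108012255-108017973), the main mu-class enzyme and a broad detoxifier of epoxides and other electrophiles, had 5969.9, 7793, 6689.5, 6858 and 5043 normalised counts in ApcMin/+ mice, against 9798, 8629.8, 10729 and 9227 in the ApcMin/+; p16cis/cis mice. Gstm3 (ENSMUSG00000004038.9, chr3:107963696-107969283) had 1116, 1438, 1282, 993 and 983 normalised counts in ApcMin/+ mice, against 1972, 1517, 1706 and 1562 in the ApcMin/+; p16cis/cis mice. For both genes every ApcMin/+; p16cis/cis mouse was above every ApcMin/+ mouse. Gstm1 was higher by 0.58 on the log2 scale (limma, SE 0.13, adjusted p = 0.0147) and Gstm3 by 0.55 (SE 0.13, adjusted p = 0.0183).

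Gstm2 (ENSMUSG00000040562.12, chr3:107981702-107986453) had 1516, 1667, 1758, 2325 and 1210.0 normalised counts in ApcMin/+ mice, against 2431, 2276, 2859.6 and 2349.8 in the ApcMin/+; p16cis/cis mice, and ApcMin/+ mouse 4 lay above the lowest ApcMin/+; p16cis/cis mouse (limma, log2 fold change 0.58, SE 0.16, adjusted p = 0.0302). The call on Gstm2 was lost in 7 of the 9 fits that left out 1 mouse, with adjusted p up to 0.0719, and was kept without ApcMin/+ mouse 4 or 5. Gstm5 (0.36, SE 0.14), Gstm7 (0.46, SE 0.20), Gstm6 (0.31, SE 0.17) and Gstm4 (0.08, SE 0.15) did not pass. Without ApcMin/+ mouse 4, 7 members were higher in place of 3, the added ones being Gstm5, Gstm7, Gstt1 and Gstz1. The mu-class transcripts hold 50.0% to 53.6% GC, more than the 38.8% to 39.9% of the tested Ugt2b transcripts. After a correction of each library for GC content and length, the log2 difference was 0.38 for Gstm1 (limma, adjusted p = 0.0657), 0.37 for Gstm2 (adjusted p = 0.0884), 0.37 for Gstm3 (adjusted p = 0.125) and -0.036 for Gstm4. The split over members became 7 lower and 0 higher at an adjusted p under 0.05 by limma, Gstp2 having entered the lower members and Ugt2b34 left them, with 5 members higher at an unadjusted p under 0.05. Mu-class genes are close paralogs whose shared reads were split by the authors' estimate.

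None of the remaining 12 glutathione transferases tested passed the threshold by limma at an adjusted p under 0.05. The membrane-bound Mgst1, which protects membranes from lipid peroxides, came nearest among those with a negative difference. It had 2671, 4456, 4790.1, 6032 and 2355 normalised counts in ApcMin/+ mice, against 2546, 2077, 2864 and 2184 in the ApcMin/+; p16cis/cis mice (limma, log2 fold change -0.67, SE 0.25, adjusted p = 0.0814), and ApcMin/+ mice 1 and 5 lay within the range of the other group. Mgst1 was past the test by DESeq2 (adjusted p = 0.0189), with the replicate number as a block (adjusted p = 0.028) and without ApcMin/+ mouse 5. Mgst3, the most abundant glutathione transferase and a microsomal peroxidase, ranged from 6864 to 22416 in ApcMin/+ mice, which held the 9186 to 11769 of the other group, and differed by -0.22 (SE 0.27). Mgst2, which also takes part in leukotriene synthesis, differed by 0.17 (SE 0.16).

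Gstt1, a theta-class enzyme that acts on halogenated compounds, came nearest among those with a positive difference. It had 344, 406, 462, 549 and 285 normalised counts in ApcMin/+ mice, against 731, 498, 478 and 738 in the ApcMin/+; p16cis/cis mice (limma, log2 fold change 0.58, SE 0.20, adjusted p = 0.0681), with overlap. Its neighbours Gstt2 and Gstt3 differed by 0.20 (SE 0.12) and 0.23 (SE 0.13), and Gstt3 has 460 of its 3842 exon bases free of the overlapping gene Gm20441. The omega-class enzyme Gsto1 was the second most abundant member per kb in ApcMin/+ mice, at 11439 to 16173 against 11868 to 13147 normalised counts, and differed by -0.12 (SE 0.12), while Gsto2 had only 3.80 to 25.4 against 9.57 to 30.1. Gstp1 and Gstp2, near-identical pi-class genes, differed by 0.15 (SE 0.15) and -0.34 (SE 0.19), and under the GC and length correction Gstp2 was past the test as lower (limma, -0.68, adjusted p = 0.0311). The kappa enzyme Gstk1 of mitochondria and peroxisomes differed by 0.14 (SE 0.14) and Gstz1, a step in tyrosine breakdown, by 0.22 (SE 0.11). The 2 glutathione transferases under the filter were Gsta2 and Gstt4, with at most 3.13 and 3.01 normalised counts.

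Sums over families show what single genes did to the pool of transcripts, and are given without a test. The UGT sum was 15858, 18028, 17592, 16394 and 17721 in ApcMin/+ mice, against 13773, 10944, 12110.0 and 9205 in the ApcMin/+; p16cis/cis mice, so that the group means stood at 17118 ± 939 against 11508 ± 1925 (SD, n = 5 and 4). All ApcMin/+; p16cis/cis mice were below all ApcMin/+ mice, at 67.2% of the ApcMin/+ mean. The Ugt1a sum was 48.9% and the Ugt2b sum 73.6% of the ApcMin/+ mean, both without overlap. The sulfotransferase sum was 19197 ± 2595 against 14976 ± 1342 (78.0%), without overlap as counts and with overlap per kb. The Gstm sum was 10432, 12754, 11642, 12695 and 8712 in ApcMin/+ mice, against 16606, 14505, 17745 and 15584 in the ApcMin/+; p16cis/cis mice, 143% of the ApcMin/+ mean and without overlap. The Gsta sum (84.4%) overlapped, and the sum over all glutathione transferases was level, at 55389 ± 13126 against 55613 ± 3207 (100.4%). ApcMin/+ mice 4 and 5 held the highest and the lowest glutathione transferase sum of all 9 mice. All members together took 0.503% ± 0.0715 of reads in ApcMin/+ and 0.393% ± 0.0447 in ApcMin/+; p16cis/cis mice, or 0.571% ± 0.0666 and 0.517% ± 0.0386 of reads outside the mitochondrial genes, with overlap on both scales.

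**Figure D4:**
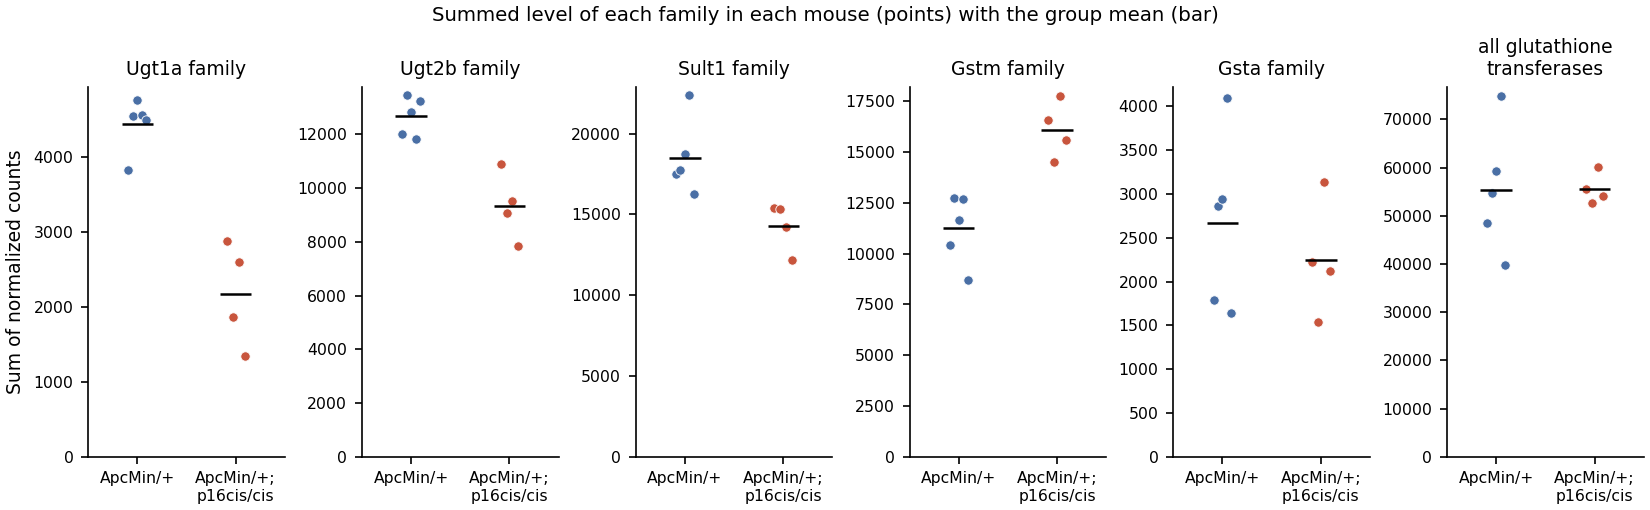
Sum of normalised counts (y axis, from 0) over 5 families and over all glutathione transferases, with 1 point per mouse and a bar at the group mean. The Ugt1a, Ugt2b and Sult1 sums of ApcMin/+; p16cis/cis mice (red) lie below those of all ApcMin/+ mice (blue), the Gstm sum lies above them, and the glutathione transferase total overlaps.

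Of 6 genes that make, move or release UDP-glucuronate or glucuronides, 3 passed the test as lower and 0 as higher, where 8.75% and 8.14% of all genes did. The same background holds for each list that follows. Ugdh, the enzyme that oxidises UDP-glucose to UDP-glucuronate, had 8136, 9358, 8569, 9089.9 and 7806 normalised counts in ApcMin/+ mice, against 3982, 3560.4, 3061 and 3077 in the ApcMin/+; p16cis/cis mice. Its groups were far apart (limma, log2 fold change -1.33, SE 0.11, adjusted p = 0.000441). Slc35d1, which carries UDP-glucuronate into the endoplasmic reticulum (limma, -0.83, SE 0.11, adjusted p = 0.00186), and Ugp2, which makes UDP-glucose (limma, -0.59, SE 0.10, adjusted p = 0.00408), were also lower without overlap. The other 3 genes, Slc35b1, Slc35d2 and Gusb, did not pass. For the sulfate donor PAPS, 6 of 9 genes were lower and 0 higher. They included the PAPS synthase Papss2 (limma, -0.66, SE 0.15, adjusted p = 0.0147), the apical sulfate transporter Slc26a2 (limma, -0.65, SE 0.13, adjusted p = 0.00909), the second synthase Papss1 (limma, -0.54, SE 0.13, adjusted p = 0.016) and the nucleotidase Bpnt1, which clears the spent donor (limma, -0.58, SE 0.10, adjusted p = 0.00571). The other 2 calls, on Impad1 and Slc35b3, were lost in 13 and 15 of 23 alternatives. In the fit on females only, the calls on Ugp2, Papss1, Papss2, Slc26a2 and Bpnt1 were lost too. Under the GC and length correction, those on Ugp2, Papss2 and Slc26a2 were lost. The calls on Ugdh and Slc35d1 were kept in both of these fits.

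For glutathione, 6 of 13 genes were lower and 0 higher by limma at an adjusted p under 0.05. Gclm and Gclc, the subunits of the rate-limiting enzyme of glutathione synthesis, differed by -0.66 (limma, SE 0.09, adjusted p = 0.00208) and -0.68 (SE 0.17, adjusted p = 0.0189). Ggt1, which breaks down glutathione outside the cell, had 138, 154, 307, 285 and 117 normalised counts in ApcMin/+ mice, against 36.6, 51.0, 33.1 and 21.9 in the ApcMin/+; p16cis/cis mice (limma, log2 fold change -2.41, SE 0.33, adjusted p = 0.00213). Cth, which supplies cysteine, was lower as well (limma, -0.74, SE 0.17, adjusted p = 0.0134). The calls on Gsr and Chac2, the other 2 of the 6, were lost in 12 and 15 of 23 alternatives, sex as a term among them. In the fit on females only, the calls on Gclc and Cth were lost too. The call on Gclc was also lost without ApcMin/+; p16cis/cis mouse 2 or 4. Of 9 exporters of the ABC family, 8 were tested, 4 were lower and 0 higher. They were Abcb1a (limma, -1.04, SE 0.16, adjusted p = 0.00334), Abcg2, which pumps out sulfate and glucuronide conjugates (limma, -1.13, SE 0.21, adjusted p = 0.00662), Abcc5 (limma, -1.10, SE 0.21, adjusted p = 0.00743) and Abcc3, the basolateral exporter of glucuronides (limma, -0.56, SE 0.12, adjusted p = 0.0123). The calls on Abcc5 and Abcc3 were lost in the fit on females only, and that on Abcg2 under the GC and length correction.

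**Figure D5:**
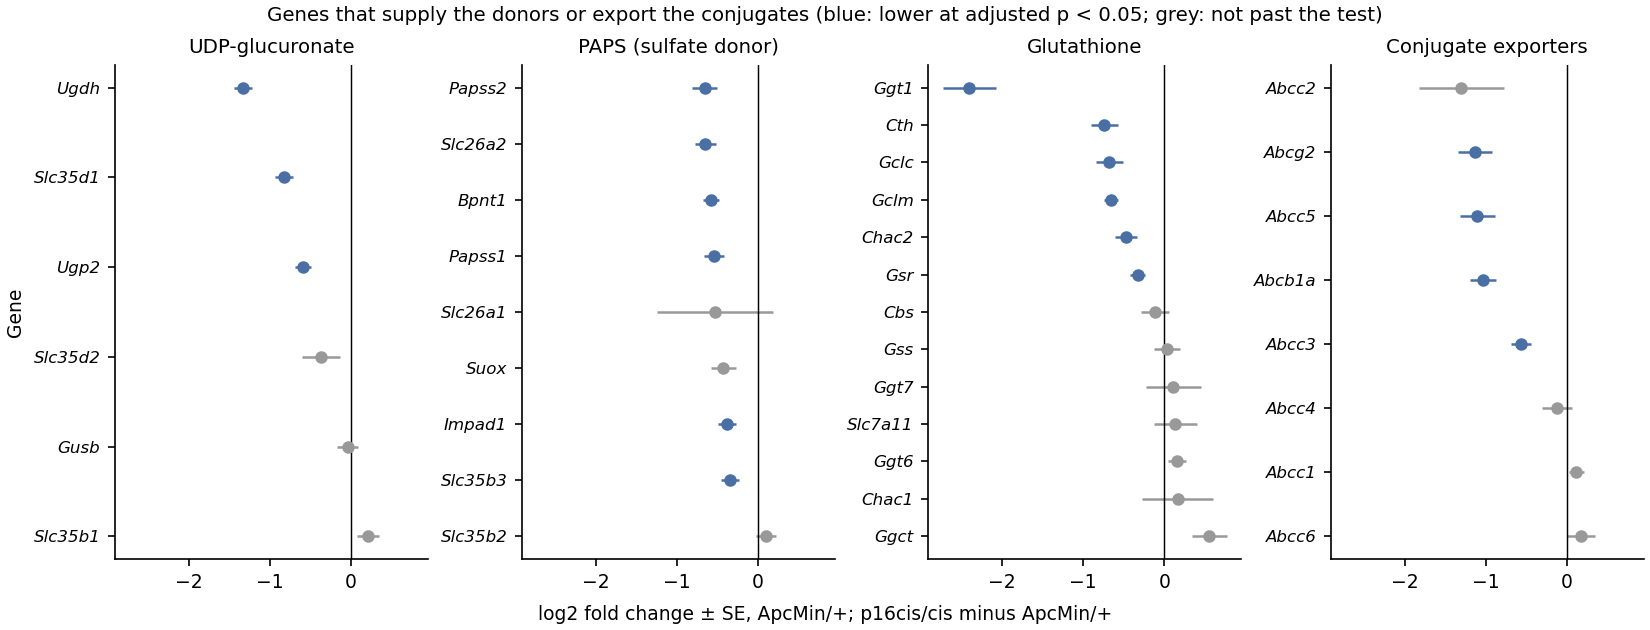
Log2 fold change (x axis, ApcMin/+; p16cis/cis minus ApcMin/+) with its standard error, 1 panel a list. The lists hold genes that make, move or break down each donor or its products, and exporters of the ABC family. Blue points, lower at an adjusted p under 0.05, number 3 for UDP-glucuronate, 6 for PAPS, 6 for glutathione and 4 for exporters, and no gene of these lists is past the test as higher.

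Of 18 tested transcription factors and cofactors that control conjugation enzymes, 3 were lower. Most of the list did not pass, the xenobiotic receptors Nr1i2 (log2 difference 0.06, SE 0.12) and Ahr (-0.35, SE 0.16) among them. The fatty acid receptor Ppara had 164, 188, 195, 277 and 276 normalised counts in ApcMin/+ mice, against 138, 94.1, 109.7 and 61.1 in the ApcMin/+; p16cis/cis mice (limma, log2 fold change -1.15, SE 0.25, adjusted p = 0.0111). Nfe2l2, which encodes the oxidative stress factor Nrf2, was lower by a smaller amount (limma, -0.48, SE 0.11, adjusted p = 0.0166), as was the coactivator Ppargc1a (limma, -0.59, SE 0.16, adjusted p = 0.0272). Of 10 tested genes for other conjugation and hydrolysis steps, the microsomal epoxide hydrolase Ephx1 was higher (limma, 0.41, SE 0.11, adjusted p = 0.0266) and the soluble epoxide hydrolase Ephx2 lower (limma, -0.85, SE 0.25, adjusted p = 0.037). The calls on Ppargc1a, Ephx1 and Ephx2 were lost in 10, 11 and 10 of 23 alternatives, sex as a term among them in each case. Those on Ppara and Nfe2l2 were each lost in 4 of 23. The fit on females only and the GC and length correction with the replicate block were among these 4.

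Sex was unevenly spread over the genotypes, and many members differed between the sexes within the ApcMin/+ group. For 20 of the 35 tested members both ApcMin/+ females lay below all 3 ApcMin/+ males, where 13.5% of all genes tested did so, and for 0 members both lay above them, where 12.2% of all genes did. Mgst1 had 2355 and 2671 in the 2 females and 4456 to 6032 in the 3 males. Gsta4 had 1157 and 1282 in the 2 females and 1869 to 3089 in the 3 males, and Mgst3 had 6864 and 10065 in the 2 females and 11439.5 to 22416 in the 3 males. The same 2 females also had the highest mitochondrial shares of the group (15.6% and 14.3%, against 8.74% to 11.4% in the males), and with 2 against 3 mice no test was made. Among females alone (2 against 3 mice), Sult1d1, Ugt2b5 and Ugt1a7c were lower and Gstm1, Gstm2 and Gstm3 higher (limma, adjusted p from 0.0121 to 0.0451), while Ugt1a1 (-1.83, adjusted p = 0.0533), Ugt2b36 (-1.25, adjusted p = 0.0976) and Ugt2b34 (-0.52, adjusted p = 0.0848) kept their direction without passing. With sex as a term over all 9 mice, the 10 members kept their calls except Ugt2b34 (adjusted p = 0.0663), and Gstm7 and Gstt1 passed as higher in addition. With the mitochondrial share as a term, 0 members and 0 of all 14410 genes passed by limma (2 members lower and 8 higher at an unadjusted p under 0.05). The log2 differences in that fit were -1.33 for Sult1d1, -1.25 for Ugt2b5, -1.26 for Ugt2b36, -1.13 for Ugt1a1 and -1.60 for Gsta1, with SE from 0.31 (Sult1d1) to 1.07 (Gsta1). They were -0.26 for Ugt1a7c (SE 0.34) and -0.21 for Ugt2b34 (SE 0.25). All of these differences except that of Sult1d1 (-1.25 without the term) lay nearer to 0 than without the term. For Gstm1, Gstm2 and Gstm3 they were 1.01, 0.98 and 1.04 (SE 0.26, 0.33 and 0.25), farther from 0 than without it.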

How the data were processed

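RNA from the colonic mucosa of 9 mice was sequenced on the BGISEQ-500 after rRNA depletion and oligo dT selection, with no statement on strand. The authors aligned reads with BOWTIE2, estimated gene levels with RSEM and compared genotypes with DESeq2; versions, genome build and annotation are not given in the sources used here. The deposited signal values are normalized counts, whole reads divided by 1 factor per mouse: every value was a whole multiple of the value of 1 read (tolerance 0.01), so reads per gene could be recovered (13523500 to 17885918 per mouse). Such a division sets the typical gene level between mice, so a shift shared by all genes cannot be seen. Gene identifiers were matched to GENCODE M21 (54079 of 54146, 52480 with the same version) for GRCm38 positions, exon length and GC content.

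The 14410 genes that reached 10 in 4 or more mice were tested on log2(value + 1), all 9 mice in 1 fit without covariates, with limma 3.58.1 (R 4.3.3, trend on) and Benjamini-Hochberg adjustment over all genes; fold changes understate low genes. This scale was used because the deposited values are not raw counts. edgeR 4.0.16 and DESeq2 1.42.0 on recovered reads, other scalings, pseudocounts of 0.1 and 10, other filters, covariates, a GC and length correction, Bonferroni adjustment and leaving out each mouse were alternatives. The limma script was tested on simulated data. Members past the test are given in every mouse, the 3 most abundant per kb of each class are named whatever their result, and at most 4 genes of a list by smallest adjusted p. For the list of transcription factors, 1 result is not reported here. Members and lists were chosen with earlier results of these data known. Replicate numbers did not pair the mice: deviations of same-numbered mice correlated at -0.18, 0.066, 0.046 and 0.14. Any 2 libraries differed in reads at 20964 or more genes. Each mouse is 1 library, so p-values measure the spread between mice. Promoter windows came from RefSeq (GRCm38.p6), with a window for 57 of the 65 members. Tables and figures were made with Python 3.11.15, pandas 2.3.3 and matplotlib 3.10.9.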

Additional observations from a re-analysis of the deposited data

Results flagged for a closer look

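In 3 of the 70 groups of mice checked (35 members in each genotype), 1 mouse stood apart from the rest of its group by Dixon's test at the 95% level, where chance flags about 1 in 20. Gstz1 was 1208 normalised counts in ApcMin/+ mouse 4 and 879 to 969.9 in the other ApcMin/+ mice. Gstp2 was 224 in ApcMin/+ mouse 5 and 317 to 339 in the others of that group. Gstm6 was 381 in ApcMin/+; p16cis/cis mouse 2 and 526 to 538 in the others. None of these 3 genes was past the test between genotypes.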

How the results depend on the processing

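Of 802 values of single members under the alternatives, 712 kept direction and side of the threshold, 45 lost the call, 12 gained one and 33 changed sign. The 7 lower members (6 with a fold over 2) numbered 3 (3) among females only, 0 (0) with the mitochondrial share as a term and 1 (1) under Bonferroni adjustment; leaving out 1 mouse gave 6 to 8 (5 to 6). The 3 higher members numbered 5 with sex as a term and 0 with the mitochondrial share as a term, under Bonferroni adjustment and under the GC and length correction with or without the replicate block (limma, with 8, 6, 3 and 5 higher at an unadjusted p under 0.05 in turn); leaving out 1 mouse gave 2 to 7. No alternative gave a higher member with a fold over 2. Over all genes, the 1261 lower and 1173 higher calls were 761 and 676 with sex as a term, 379 and 519 among females only, 0 and 0 with the mitochondrial share as a term, 831 and 914 under the GC and length correction, 668 and 626 with the block added, and 22 and 5 under Bonferroni adjustment; leaving out 1 mouse gave 648 to 1797 and 535 to 1691. With the replicate number as a block, which gives ApcMin/+ mouse 5 no weight, 7 members were lower, 5 with a fold over 2, and 3 higher, with Mgst1 added and Ugt2b34 lost (limma, adjusted p = 0.0567); same-numbered mice did not deviate together. Values that changed sign: with the mitochondrial share as a term, Gsta4 0.60, Gsto1 0.041, Gstp2 0.0089, Mgst1 0.32, Mgst2 -0.055, Mgst3 0.35, Sult1c2 0.37, Sult6b1 -0.62, Ugt2b35 0.34, Papss1 0.0065 and Spink4 -0.045; among females only, Gsta4 0.078, Mgst3 0.34 and Sult6b1 -0.74; under the GC and length correction, Gstm4 -0.036, Gstp1 -0.21, Sult1a1 -0.034, Sult2b1 -0.031 and Ugt2b35 0.13, and with the block added Gstm4 -0.068, Gstp1 -0.22, Sult1a1 -0.067, Sult2b1 -0.10 and Ugt2b35 0.14; with the block alone, Sult1a1 -0.017 and Sult2b1 -0.020; and leaving out 1 mouse, Sult1a1 from -0.048 to 0.11, Sult2b1 from -0.046 to 0.29 and Sult6b1 from -0.36 to 0.62. None of the members here was past the test in the reported fit, whereas Papss1 and Spink4, which are no members, were; the cause was not tested. With 5 and 4 mice, and sex and mitochondrial share uneven between genotypes, small differences in members with few reads were not detectable.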

Other observations

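Of 8 enteroendocrine and tuft markers, Chgb (limma, -1.11, SE 0.22, adjusted p = 0.00846) and Chga (limma, -0.69, SE 0.20, adjusted p = 0.0373), which are granule proteins of enteroendocrine cells, were lower, and the colonic hormone Insl5 was higher (limma, 1.24, SE 0.31, adjusted p = 0.0211). Of 8 goblet cell markers, Spink4 was higher (limma, 1.41, SE 0.32, adjusted p = 0.0139), with 18668, 48529, 56269 and 52382 normalised counts in ApcMin/+; p16cis/cis mice, of which mouse 1, the only male, was the lowest. Of 6 distal colon position genes, Hoxd10 was higher (limma, 1.35, SE 0.39, adjusted p = 0.0341). Of 4 tested small intestinal enterocyte markers, 2 were lower: the disaccharidase Sis, at 78.0 to 103 against 1.57 to 20.7 normalised counts (limma, -3.04, SE 0.52, adjusted p = 0.00509), and the alkaline phosphatase Alpi (limma, -1.60, SE 0.40, adjusted p = 0.0208). Of 3 tested hepatocyte markers, Ttr was higher (limma, 0.63, SE 0.19, adjusted p = 0.0384), while Serpina1a and Fgb were at 0 in all mice. Of 23 alternatives, 15 lost the call on Ttr, 12 that on Hoxd10, 9 that on Chga, 8 that on Alpi and 6 that on Insl5, with sex as a term among them for all but Insl5.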
